A study of Mus musculus with 21 samples.

Results

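The Ikaros family was followed through 7 fractions of haematopoietic cells from the bone marrow of C57BL/6 mice. Its 5 genes, Ikzf1 to Ikzf5, were taken as every array probe whose RefSeq accession maps to 1 of these symbols, and the brightest probe of each gene over the 21 arrays is the one reported. This gave 10 probes among 41174, and 5 genes among the 18217 symbols that the probes could be matched to. Each fraction was measured on 3 arrays of 1 colour, and all fractions came from animals of this strain with no treatment named, whose age and number per sample are not given in the sources used here. The KLS fraction, which holds the multipotent progenitors, carried Kit and Sca1 and lacked lineage antigens. PreMegE cells (CD150+ CD105- FcgR-) and CFUe cells lead to Ter119 cells (CD71+ Ter119+) on the erythroid side. PreGM cells and GMP cells (CD150- FcgR+) lead to Mac1Gr1 cells (Mac1+ Gr1+) on the myeloid side. The labels give CFUe and PreGM the same antigens (CD150- CD105- FcgR-) and call the progenitors Sca1+, so that these fractions are told apart here by their titles. The mature Ter119 and Mac1Gr1 fractions have no lineage depletion in their labels.

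Ikaros proteins are zinc finger factors that bind DNA through fingers near the amino terminus and pair with each other through fingers at the carboxy terminus. Ikaros (Ikzf1) is needed for lymphoid cells to form, Helios (Ikzf2) is known from progenitors and regulatory T cells, and Aiolos (Ikzf3) from maturing B cells. Eos (Ikzf4) works as a repressor in regulatory T cells, and Pegasus (Ikzf5) is the most distant relative. The family acts largely by bringing the NuRD remodelling and deacetylase complex, CtBP and SIN3 to DNA. In human cells the cereblon ubiquitin ligase marks Ikaros and Aiolos for destruction when thalidomide-like drugs are bound.

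All 10 probes passed the filter on dim probes, and the 5 reported probes were well above background on all 21 arrays. Levels are log2 intensities from which the 75th percentile of their array was subtracted, so 0 equals that percentile. Levels of different genes come from different probes and are not compared. Arrays of 1 fraction correlated at 0.977 to 0.993 over all probes and those of different fractions at 0.964 or less. The intensity at the 75th percentile differed between fractions. It was 196 to 291.5 on the Ter119 arrays, 345.1 to 400.8 on Mac1Gr1 and 503.5 to 610.1 on CFUe, against 665.9 to 1010 on the other progenitor arrays. Transcripts of the sex chromosomes also divided the arrays: 11 carried Y-linked transcripts (all KLS, PreMegE and Ter119 arrays, CFUe replicate 3 and PreGM replicate 3) and 10 carried Xist without them. CFUe replicate 3 also had Xist well above background, at a level of -4.47, against up to 5.09 on the other CFUe arrays. A fit in which each comparison stays within arrays of 1 class was therefore run, and its values are given as within-class. In it a CFUe or PreGM array compared with KLS, PreMegE or Ter119 stands alone and is assumed to vary like the others. Such an array adds nothing to the spread, so p-values and calls of these within-class values do not measure variation within its fraction. Nothing in the labels says that the 3 arrays of a fraction came from separate animals, so p-values measure the spread between these samples, which may be technical.

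The Ter119 fraction held transcripts of other cells. The summed level of 8 B cell markers, in multiples of the 75th percentile, was 138 to 190 on its arrays, 1.07 to 2.23 on CFUe and 30.9 to 52.2 on Mac1Gr1, with all 8 markers detected on each Ter119 array. Ms4a1, a surface protein of B cells, did not rise well above background on the CFUe and GMP arrays. The sum of 12 granulocyte markers was 4720 to 5940 on Ter119, close to the 5450 to 6110 on Mac1Gr1, and 5.39 to 41.4 on CFUe. The 2 arrays that stand alone in within-class fits differed from the others of their fraction in such sums. For granulocyte markers CFUe replicate 3 had 41.4, against 5.96 and 5.39. For 6 mast cell and basophil markers PreGM replicate 3 had 26.4, against 11.5 and 10.4. The part of other cells in the within-class values was not tested. The sum of 8 T and NK cell markers was 7.72 to 8.71 on Ter119 and 0.812 to 1.23 on CFUe. That of 4 plasmacytoid dendritic cell markers was 36.1 to 52 and 1.71 to 2.13. The Ter119 value of the latter came mostly from Ly6d (mean level 5.21), with Tcf4 at 1.75, Pacsin1 at 0.30 and Siglech at -0.99. Erythroid markers were present as the label says (1370 to 1770 on Ter119, 91.4 to 98 on CFUe and at most 4.23 on KLS and the 3 myeloid fractions). Ly6a, the Sca1 gene, stood at 2.57 in KLS, 2.10 in GMP, -0.31 in PreGM, -3.14 in PreMegE and -5.81 in CFUe, where 1 of 3 arrays was well above background, so the Sca1+ label of the last 2 fractions did not match their transcripts. In sorted cells measured in bulk, fewer cells of a type and less RNA per cell cannot be told apart.

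The sequences upstream of the transcription starts could be read for 2 of the 5 genes, from RefSeq on GRCm38.p6, and are shown because the founding gene of the family has starts of unlike base composition, with Ikzf5 beside it. Ikzf1 has starts on chromosome 11, with windows at chr11:11685675-11685924 and chr11:11689927-11690176 (plus strand), and Ikzf5 lies on chromosome 7 at chr7:131410479-131410728 (minus strand). Each window is the 250 bases before a start, written 5′ to 3′.
Ikzf1, upstream start: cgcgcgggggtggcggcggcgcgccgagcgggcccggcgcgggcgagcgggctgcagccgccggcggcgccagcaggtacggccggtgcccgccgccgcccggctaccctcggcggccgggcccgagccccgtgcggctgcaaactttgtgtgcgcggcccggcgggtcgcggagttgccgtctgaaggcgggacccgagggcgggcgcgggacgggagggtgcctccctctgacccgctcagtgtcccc
Ikzf1, downstream start: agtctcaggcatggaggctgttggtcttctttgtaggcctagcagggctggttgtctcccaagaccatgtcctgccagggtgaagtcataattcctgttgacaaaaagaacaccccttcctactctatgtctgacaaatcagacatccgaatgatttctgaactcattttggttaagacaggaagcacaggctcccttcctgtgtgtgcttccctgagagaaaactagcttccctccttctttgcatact
Ikzf5: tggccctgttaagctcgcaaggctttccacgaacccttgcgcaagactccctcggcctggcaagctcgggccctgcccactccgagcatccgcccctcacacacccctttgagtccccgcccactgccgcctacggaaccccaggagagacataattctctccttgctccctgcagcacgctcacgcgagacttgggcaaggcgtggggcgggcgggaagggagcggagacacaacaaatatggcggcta
The bases G and C made up 82% of the window at the upstream Ikzf1 start, 47.6% of that at the downstream start and 64% of the Ikzf5 window, against a median of 52.4% over 32851 windows. The erythroid GATA motif AGATAAG, the ETS motif GGAAGTG of PU.1 and the Ikaros motif TGGGAA were searched on both strands, and none of these letters occurred in the 3 windows. They occur in 2.74%, 8.55% and 21.6% of all windows. The single Ikzf1 probe does not say which start was used.

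Relative to the 75th percentile the genes of the family took separate courses. Ikzf1 was highest in mature myeloid cells and lowest in GMP, PreGM and CFUe. Ikzf2 was high in KLS, PreMegE and PreGM and fell in both lineages. Ikzf3 and Ikzf4 were low in all 5 progenitor fractions and higher in Ter119 and Mac1Gr1. For Ikzf4 neither rise was called under spike-in scaling or by the other probes of the gene. Ikzf5 stayed within a narrow range on the percentile scale and fell in both mature fractions on the spike-in scale, where the median probe fell as well.

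**Figure D1:**
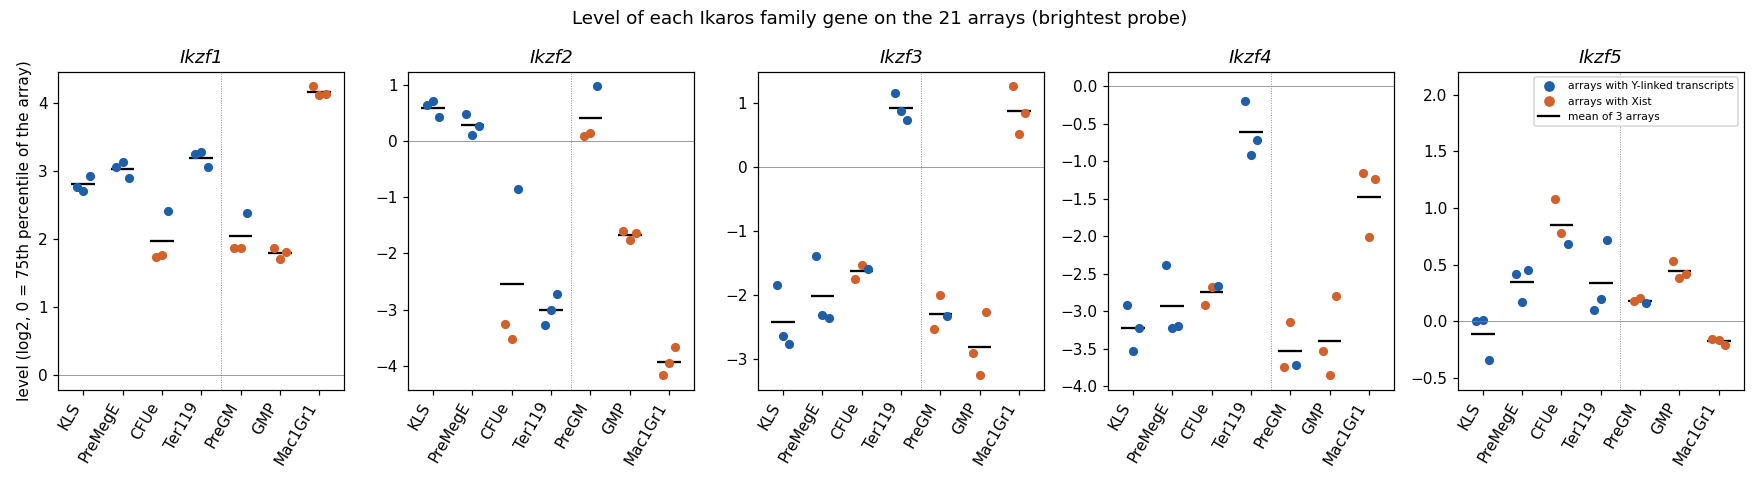
Level of each Ikaros family gene (vertical axis, log2, 0 = 75th percentile of the array) on the 21 arrays, by fraction, with the erythroid fractions left and the myeloid fractions right of the dotted line; points are arrays, coloured by sex-chromosome transcripts, and bars are means of 3 arrays. Ikzf2 falls from 0.60 in KLS to -3.01 in Ter119 and -3.93 in Mac1Gr1, and the third CFUe array (-0.85) lies apart from the other two.

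Ikzf1 stood at 2.76, 2.71 and 2.93 on the KLS arrays, at 3.06, 3.13 and 2.89 on PreMegE, at 1.74, 1.76 and 2.41 on CFUe and at 3.24, 3.27 and 3.05 on Ter119. On the myeloid side the levels were 1.86, 1.87 and 2.38 in PreGM, 1.86, 1.71 and 1.81 in GMP, and 4.24, 4.11 and 4.13 in Mac1Gr1. KLS, PreMegE, Ter119 and Mac1Gr1 all lay above the highest array of CFUe, PreGM and GMP. The change from PreMegE to CFUe was -1.06 ± 0.167 (SE, limma adjusted p 5.09e-05). It was under 2-fold without CFUe replicate 1 (-0.94) or 2 (-0.95) and within-class (-0.62, adjusted p 0.00221), and it was called under spike-in scaling (-1.57, adjusted p 3.14e-05). From KLS to PreGM the change was -0.76 ± 0.167 (adjusted p 0.00324), under 2-fold, but -0.42 within-class (adjusted p 0.0519) and -1.38 under spike-in scaling (adjusted p 0.000375), where it was called. From KLS to GMP it was -1.01 ± 0.167 (adjusted p 0.000102). That change was under 2-fold without KLS replicate 3 (-0.94) or GMP replicate 2 (-0.96) and with a slide term as block (-0.97, adjusted p 0.013). Under spike-in scaling it was -0.60 (adjusted p 0.0591), not called. On 1 slide that held both fractions it was -1.22. PreMegE exceeded PreGM by 0.99 ± 0.167 (adjusted p 0.000246), again just under 2-fold. The within-class value was 0.65 (adjusted p 0.00324), spike-in scaling gave a called 1.14 (adjusted p 0.00255), and 2 slides that held both gave 1.27 and 0.52.

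In mature cells the Ikzf1 change depended on the scaling between arrays. From CFUe to Ter119 Ikzf1 rose by 1.22 ± 0.167 relative to the 75th percentile (adjusted p 3.99e-06), while its mean intensities as deposited were 2170 and 2190. When arrays were scaled to the spike-in RNAs, which were added to each sample, the change was -0.15 ± 0.249 (adjusted p 0.576). Within arrays with Y-linked transcripts it was 0.78 (adjusted p 0.000119), under 2-fold. From GMP to Mac1Gr1 Ikzf1 rose by 2.37 ± 0.167 (adjusted p 8.45e-10), its mean intensity went from 3180 to 6680, and under spike-in scaling the change was 0.34 ± 0.249 (adjusted p 0.211). Over all probes tested, spike-in scaling moved the median change from 0.05 to -1.33 at the erythroid step and from 0.17 to -1.86 at the myeloid step, so that on that scale Ikzf1 lay above the median probe at both. Mac1Gr1 exceeded Ter119 by 0.97 (adjusted p 7.44e-05), and it passed 2-fold without Ter119 replicate 2 (1.02) or replicate 1.

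Ikzf2, the Helios gene, fell in both lineages. Its levels were 0.65, 0.71 and 0.44 in KLS, 0.49, 0.11 and 0.28 in PreMegE, -3.25, -3.53 and -0.85 in CFUe and -3.28, -3.01 and -2.73 in Ter119. In the myeloid fractions they were 0.09, 0.15 and 0.98 in PreGM, -1.60, -1.76 and -1.64 in GMP and -4.17, -3.95 and -3.67 in Mac1Gr1. The arrays of KLS, PreMegE and PreGM overlapped each other, and none of them overlapped the other 4 fractions. From PreMegE to CFUe Ikzf2 fell by 2.84 ± 0.467 (SE, adjusted p 7.5e-05), a 7.14-fold difference, and the mean intensity went from 896 to 130. This step carries a wide error, with an SD of 1.47 over the CFUe arrays. CFUe replicate 3, the array with Y-linked transcripts, lay above the other 2. Its granulocyte sum was 41.4, against 5.96 and 5.39 on them, and the part of other cells in its Ikzf2 level was not tested. Within the class with Y-linked transcripts, where this CFUe array stands alone, the change from PreMegE to CFUe was -1.14. On the slide that held CFUe replicate 2 and PreMegE replicate 1 the difference was -4.02. Whether most of the erythroid fall lies before or after CFUe rests on CFUe replicate 3. From CFUe to Ter119 the change was -0.46 ± 0.467 (adjusted p 0.376) over all arrays and -2.15 within the class. The step was called with quantile normalization (-1.18, adjusted p 0.0226), with spike-in scaling (-1.84, adjusted p 0.000699) and with no scaling (-1.66, adjusted p 0.00349), whereas it was 0.14 after normexp correction and 0.38 without CFUe replicate 3.

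On the myeloid side Ikzf2 did not differ by a called amount from KLS to PreGM (-0.20 ± 0.467, adjusted p 0.813), and the within-class value was 0.38 (adjusted p 0.306). The change was -2.07 ± 0.467 between PreGM and GMP (adjusted p 0.0032) and -2.26 ± 0.467 between GMP and Mac1Gr1 (adjusted p 0.000311). With slides blocked the former was -1.86 (adjusted p 0.0745) and -1.69 on the slide that held both fractions. Within arrays with Xist it was -1.79 ± 0.177 (adjusted p 3.16e-06). The latter was -0.70 after normexp background correction (adjusted p 0.0326), under 2-fold. Ikzf2 was dim in Mac1Gr1, with a mean intensity of 24.4. Spike-in scaling kept the direction and the call of the falls from PreMegE to CFUe (-3.35), from PreGM to GMP (-1.06) and from GMP to Mac1Gr1 (-4.30).

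The other Ikzf2 probes were lower at the same steps, though not each by a called amount. From PreMegE to CFUe they changed by -2.93, -3.42 and -1.79, in order of brightness, each called, but the last 2 probes were well above background on 1 of 3 CFUe arrays, so the size of their change is uncertain. From PreGM to GMP the values were -2.14, -1.62 and -1.24, of which the last was not called (adjusted p 0.117). From GMP to Mac1Gr1 the brightest of them changed by -0.99, under 2-fold, and the dimmest, well above background on 1 of 3 Mac1Gr1 arrays, by -1.42. The one between them stayed below the background criterion on all Mac1Gr1 arrays, and its GMP level was higher by at least 2.15-fold.

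**Figure D2:**
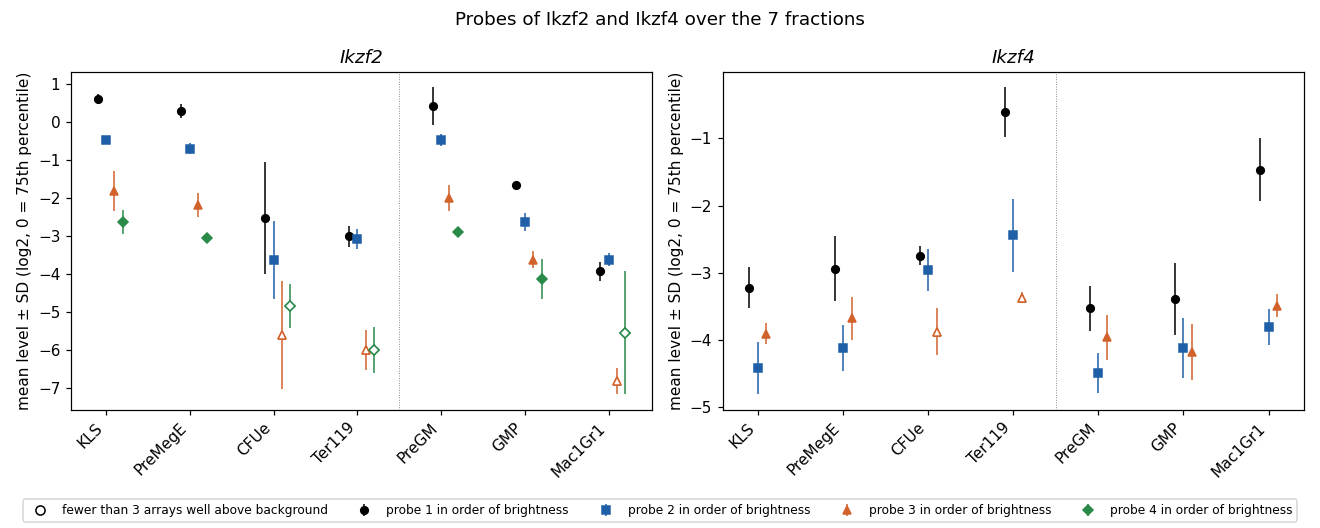
Mean level ± SD over 3 arrays (vertical axis, log2, 0 = 75th percentile of the array) of each probe of Ikzf2 (left) and Ikzf4 (right) by fraction; open symbols mark fewer than 3 arrays well above background. The 4 Ikzf2 probes are lower in GMP, CFUe and the mature fractions than in KLS, while the rise of Ikzf4 in mature fractions is largest at its brightest probe (from -2.75 in CFUe to -0.61 in Ter119).

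Ikzf3, the Aiolos gene, stood at -1.85, -2.65 and -2.77 in KLS, -1.40, -2.32 and -2.36 in PreMegE, -1.76, -1.53 and -1.60 in CFUe, -2.54, -2.01 and -2.34 in PreGM and -2.92, -3.26 and -2.27 in GMP. It stood at 1.16, 0.87 and 0.73 in Ter119 and at 1.26, 0.51 and 0.85 in Mac1Gr1. The mature arrays all lay above the progenitor arrays and overlapped each other. From CFUe to Ter119 Ikzf3 rose by 2.55 ± 0.304 (SE, adjusted p 7.39e-07) and from GMP to Mac1Gr1 by 3.69 ± 0.304 (adjusted p 6.43e-09). The former was 2.52 within-class (adjusted p 0.00018). Both rises were called under spike-in scaling, at 1.17 ± 0.364 (adjusted p 0.00618) and 1.66 ± 0.364 (adjusted p 0.000303), and the mean intensity as deposited went from 177 to 451 and from 136 to 703. The slide that held Ter119 replicate 3 and CFUe replicate 1 gave 2.49. CFUe exceeded GMP by 1.19 ± 0.304 (adjusted p 0.00342), but by 0.97 without GMP replicate 2, 0.68 with slides blocked, 0.98 after normexp correction and 0.45 with no scaling, none of them called. The difference was -0.19 under spike-in scaling and 1.17 within-class (adjusted p 0.0138).

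Values of other cells moved with these rises. The B cell sum went from 1.07 to 2.23 on CFUe to 138 to 190 on Ter119, and from 8.38 to 9.91 on GMP to 30.9 to 52.2 on Mac1Gr1. Ter119 and Mac1Gr1 did not differ in Ikzf3 by a called amount (difference 0.05 ± 0.304, adjusted p 0.897). Between the same fractions 8 of 8 B cell markers and 6 of 8 T and NK cell markers were called higher in Ter119, against 22% of probes. The T and NK cell sum was 6.5 to 8.21 on Mac1Gr1, beside 7.72 to 8.71 on Ter119 and 0.619 to 1.05 on GMP. On Mac1Gr1 it came mostly from Cd3d (mean level 2.56), with the next marker, Cd3e, at -0.57. From GMP to Mac1Gr1 3 of 8 T and NK cell markers were called higher, against 29.1% of probes. Probes of genes that blood cells are not known to use rose as well. Of the olfactory receptor genes, a group looked at after the data had been seen, 156 had a probe well above background on every array, and their median change was 1.04 from CFUe to Ter119 and 0.90 from GMP to Mac1Gr1. The part of any of these in the Ikzf3 values was not tested.

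**Figure D3:**
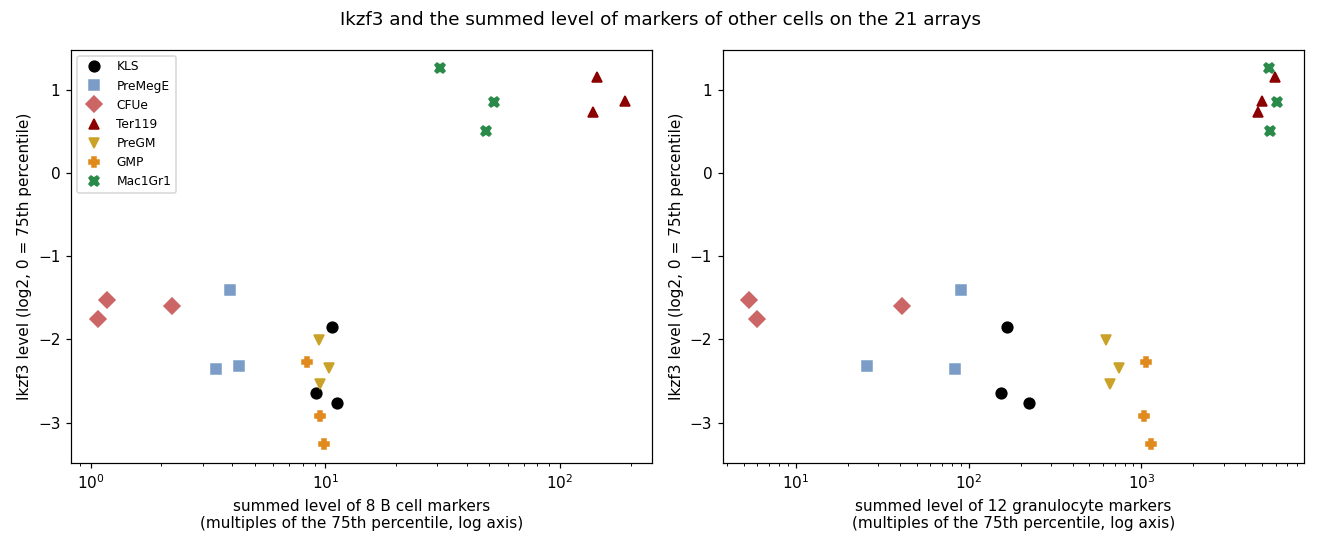
Level of Ikzf3 on each of the 21 arrays (vertical axis, log2, 0 = 75th percentile) against the summed level of 8 B cell markers (left) and 12 granulocyte markers (right), in multiples of the 75th percentile on log axes; each point is an array, with a symbol for its fraction. The Ter119 arrays have B cell sums of 138 to 190 and the Mac1Gr1 arrays 30.9 to 52.2 at overlapping Ikzf3 levels.

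Ikzf4, the Eos gene, stood at -2.92, -3.53 and -3.22 in KLS, -2.38, -3.22 and -3.20 in PreMegE, -2.91, -2.67 and -2.66 in CFUe, -3.74, -3.14 and -3.71 in PreGM and -3.53, -3.85 and -2.80 in GMP. The levels were -0.20, -0.91 and -0.72 in Ter119 and -1.16, -2.01 and -1.24 in Mac1Gr1. As for Ikzf3, both mature fractions lay above every progenitor array. The rise from CFUe to Ter119 was 2.14 ± 0.307 (SE, adjusted p 6.94e-06) and that from GMP to Mac1Gr1 1.92 ± 0.307 (adjusted p 2.33e-05). The former was 2.05 within-class (adjusted p 0.00101). Under spike-in scaling they were 0.76 ± 0.341 (adjusted p 0.0478), under 2-fold, and -0.11 ± 0.341 (adjusted p 0.768), so neither was called. The other Ikzf4 probes rose less. From CFUe to Ter119 they changed by 0.52 (adjusted p 0.121) and 0.51 (adjusted p 0.0515), and from GMP to Mac1Gr1 by 0.31 (adjusted p 0.356) and 0.70 (adjusted p 0.0104), none of them called. The probe second in brightness was instead called from PreMegE to CFUe (1.16 ± 0.296, adjusted p 0.00343), where the brightest probe changed by 0.19 (adjusted p 0.634). The probes of Ikzf4 thus disagree on where the gene rose, and the reported one was chosen by its mean over all arrays.

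Ikzf5, the Pegasus gene, stood at 0.00, 0.01 and -0.34 in KLS, 0.42, 0.17 and 0.45 in PreMegE, 1.08, 0.78 and 0.68 in CFUe and 0.10, 0.20 and 0.72 in Ter119. In PreGM it was 0.18, 0.21 and 0.16, in GMP 0.53, 0.38 and 0.42 and in Mac1Gr1 -0.15, -0.16 and -0.21. Its fraction means spanned 1.02 on the log2 scale, from -0.17 in Mac1Gr1 to 0.85 in CFUe, and the CFUe arrays overlapped only those of Ter119. CFUe exceeded KLS by 0.96 ± 0.152 (SE, adjusted p 3.42e-05), just under 2-fold. The difference passed 2-fold without KLS replicate 1 (1.01), KLS replicate 2 (1.02) or CFUe replicate 3 (1.04). The steps were smaller, at 0.46 from KLS to PreMegE (adjusted p 0.0336), 0.50 from PreMegE to CFUe (adjusted p 0.0114), -0.51 from CFUe to Ter119 (adjusted p 0.00637) and -0.61 from GMP to Mac1Gr1 (adjusted p 0.00157). Within-class, CFUe exceeded KLS by 0.79 (adjusted p 0.00672), and the steps into and out of CFUe were 0.33 (adjusted p 0.26) and -0.34 (adjusted p 0.178). The mean intensity as deposited went from 1000 to 321 and from 1240 to 331 at the steps into Ter119 and Mac1Gr1. Under spike-in scaling these steps were -1.88 (adjusted p 5.75e-05) and -2.64 (adjusted p 6.33e-07). Much of that is a shift shared by all probes, as the median probe changed by -1.33 and -1.86. On that scale the earlier erythroid steps were 0.00 and -0.02, and CFUe against KLS was -0.02.

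Counted step by step, members were called at an adjusted p under 0.05 and at least 2-fold. From KLS to PreMegE 0 of 5 were called, against 12.4% of the 29526 probes tested. Ikzf5 alone had an unadjusted p under 0.05 (0.00793). From PreMegE to CFUe Ikzf1 and Ikzf2 fell, 2 of 5, where 24.7% of probes were called and 14.7% fell. From CFUe to Ter119 Ikzf1, Ikzf3 and Ikzf4 rose, 3 of 5, where 57.2% were called and 29.2% rose. On the myeloid side 0 of 5 were called from KLS to PreGM (8.63% of probes), where Ikzf1 alone had an unadjusted p under 0.05 (0.00031). From PreGM to GMP Ikzf2 fell, 1 of 5 (10.4% called, 6.36% lower). From GMP to Mac1Gr1 Ikzf1, Ikzf3 and Ikzf4 rose and Ikzf2 fell, 4 of 5, where 56.7% of probes were called, 29.1% higher and 27.6% lower. Read against these shares, 3 of 5 and 4 of 5 members at the last steps are no result about the family.

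**Figure D4:**
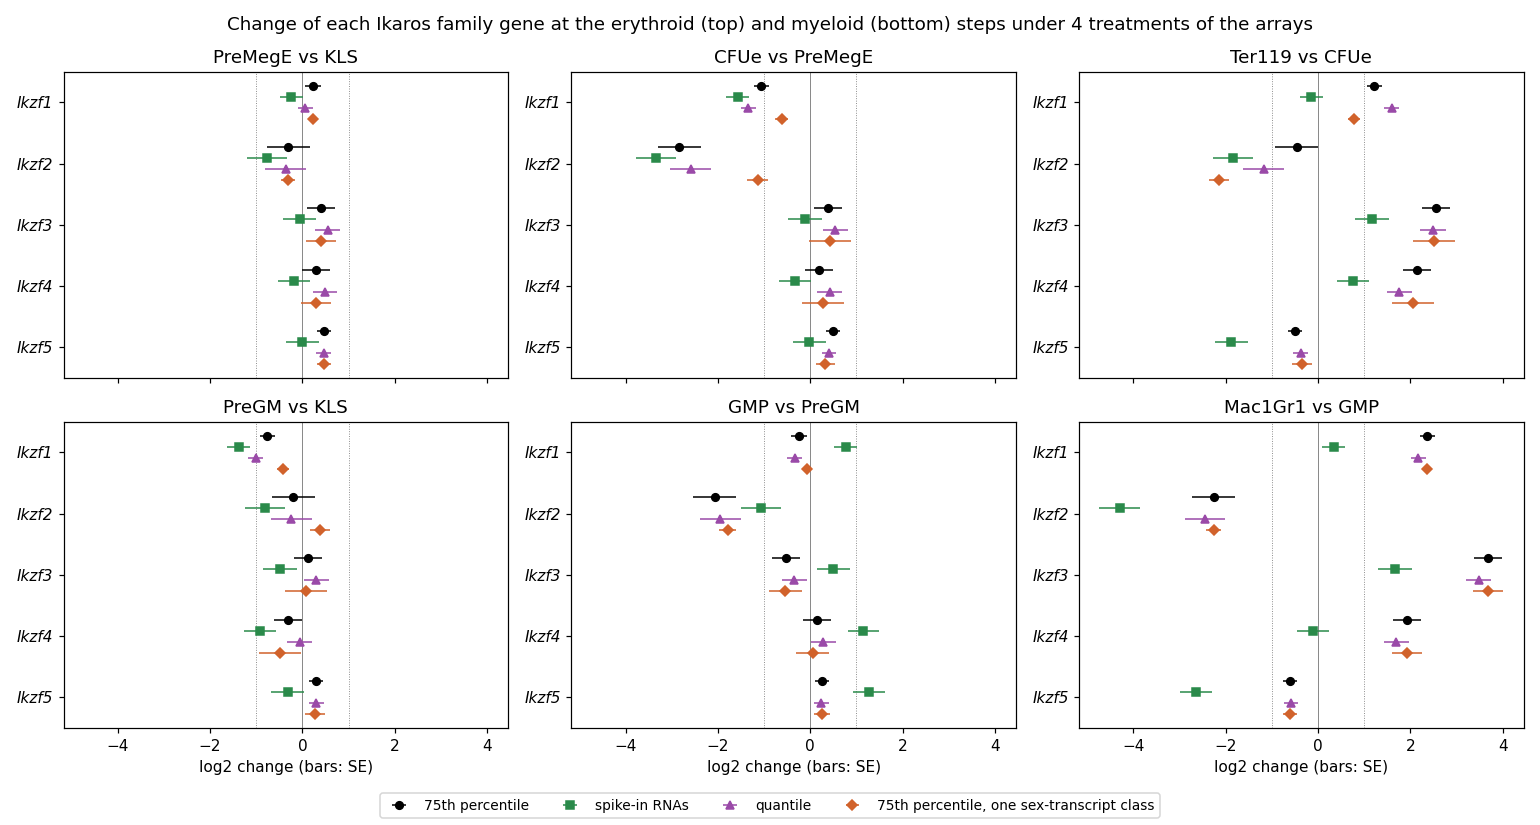
Log2 change of each Ikaros family gene (horizontal axis; bars are SE) at the erythroid steps (top) and myeloid steps (bottom), relative to the 75th percentile, to the spike-in RNAs, after quantile normalization and within 1 class of sex-chromosome transcripts; dotted lines mark 2-fold. At the last steps Ikzf1 moves from 1.22 to -0.15 and from 2.37 to 0.34 when the spike-in RNAs set the scale, while Ikzf3 stays above 1.

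Between the lineages at matched stages, 0 of 5 members were called in PreMegE against PreGM (12% of probes called) and 0 of 5 in Ter119 against Mac1Gr1 (41.9%). In the former Ikzf1 alone had an unadjusted p under 0.05 (2.01e-05). In the latter Ikzf1, Ikzf4 (0.86 ± 0.307, adjusted p 0.0206) and Ikzf5 (0.51 ± 0.152, adjusted p 0.00701) differed by less than 2-fold. In CFUe against GMP Ikzf3 was called higher (26.3% of probes called, 12.1% higher). Ikzf2 was 0.88 lower in CFUe (± 0.467, adjusted p 0.125). Without CFUe replicate 3, which leaves the arrays with Xist, it was 1.72 lower (adjusted p 1.65e-05), and the difference was also called under spike-in scaling (-2.26, adjusted p 0.000145). Against KLS, Ikzf2 was called lower in CFUe (-3.15 ± 0.467, adjusted p 1.65e-05), where 36.3% of probes were called and 19.1% were lower. The within-class value was -1.45. In GMP Ikzf2 (-2.27 ± 0.467, adjusted p 0.000701) and Ikzf1 were called lower than in KLS, where 21.7% of probes were called and 13.7% were lower. With slides blocked the Ikzf2 value in GMP was -1.59 (adjusted p 0.0908). These comparisons with KLS share the KLS arrays. GMP against KLS and Ter119 against Mac1Gr1 have no class of sex-chromosome transcripts in common, so that class and fraction cannot be told apart there.

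The difference between the lineages was tested directly at the later steps. At the second step 0 of 5 members were called (20.2% of probes called), with Ikzf1 at -0.81 ± 0.237 (adjusted p 0.0133) and Ikzf3 at 0.91 ± 0.43 (adjusted p 0.115), the 2 members with an unadjusted p under 0.05. At the third step 3 were called (39.9% of probes called, 20.9% higher and 19% lower): relative to the 75th percentile Ikzf1 rose less in the erythroid lineage (-1.15 ± 0.237, adjusted p 0.000571), as did Ikzf3 (-1.14 ± 0.43, adjusted p 0.033), and Ikzf2 fell less there (1.80 ± 0.66, adjusted p 0.0288). Within-class only Ikzf1 was called (-1.59, adjusted p 2.06e-06), with Ikzf2 at 0.11 ± 0.274 (adjusted p 0.768) and Ikzf3 at -1.17 (adjusted p 0.0984). Under spike-in scaling only Ikzf2 was called (2.46, adjusted p 0.00317), with Ikzf1 at -0.49 (adjusted p 0.286) and Ikzf3 at -0.48 (adjusted p 0.488). The Ikzf3 call was lost in the fits without CFUe replicate 2 or 3, Ter119 replicate 2 or 3, GMP replicate 1 or 2, or Mac1Gr1 replicate 1 or 3, with values from -0.92 to -1.41 over all 12 such fits. The Ikzf2 call was lost without CFUe replicate 1 (1.45) or 2 (1.31), Ter119 replicate 3 (1.66), GMP replicate 1 (1.77) or Mac1Gr1 replicate 1 (1.68). That of Ikzf1 dropped under 2-fold without CFUe replicate 3 (-0.93). With quantile normalization none of the 3 was called (-0.57, 1.27 and -0.98).

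Placed in order, neighbouring fractions mostly did not differ by a called amount. For Ikzf2 the called gap was between PreMegE and GMP (1.96 ± 0.467, adjusted p 0.00238). For Ikzf3 it lay between Mac1Gr1 and CFUe (2.50 ± 0.304, adjusted p 7.99e-07), and for Ikzf4 between the same fractions (1.27 ± 0.307, adjusted p 0.00119). For Ikzf1 and Ikzf5 no neighbours were called apart. Over the 7 fraction means, which share arrays and scaling, Ikzf3 and Ikzf4 ran closest together (r = 0.966) and Ikzf2 ran opposite to Ikzf3 (r = -0.778) and Ikzf4 (r = -0.752).

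Of the other genes, those most like Ikzf2 over the 7 fraction means were Tbc1d4 (r = 0.99), which acts in glucose uptake, Sorbs3 (0.987), Tha1 (0.986), Zfp286 (0.985) and Maml3 (0.984), a coactivator of Notch. Those most like Ikzf1 were 4930581F22Rik (0.987), Olfr177 (0.984), Uvssa (0.983), Rdh5 (0.982) and Ccdc17 (0.981). For Ikzf3 the genes were Spaca4 (0.999), a sperm protein, Myoc (0.998), an eye protein, Sebox, Cyren and Krtap6-1 (0.995), a hair keratin-associated protein. For Ikzf4 they were Cby2, the olfactory receptor genes Olfr127 (0.996) and Olfr726 (0.995), Bmf and Mybpc2. Among the genes closest to Ikzf5 were Olfr441 (0.982), Atl2 (0.981), Ighmbp2 (0.968) and Smc4 (0.967). Jup (-0.992) was the gene most opposed to Ikzf5, Ddx28 (-0.985) to Ikzf1, C1qtnf5 (-0.993) to Ikzf2, Gmds (-0.997) to Ikzf3 and Fundc1 (-0.995) to Ikzf4. With 7 points and 14312 symbols tested, such values describe the arrays only.

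Among the corepressor partners of the family, the NuRD genes called at the last steps were mostly lower. Of 12 NuRD genes, 6 fell and 0 rose from CFUe to Ter119, where 57.2% of probes were called and 28% fell. The median change of the 12 was -1.01, against 0.05 over all probes tested. Those that fell were Mta1 (-2.92 ± 0.102), Mbd3 (-2.68 ± 0.224), Rbbp7 (-2.56 ± 0.111), Hdac2 (-1.80), Mta2 (-1.51) and Gatad2a (-1.39). From GMP to Mac1Gr1 6 fell and 2 rose, where 56.7% of probes were called, 27.6% lower and 29.1% higher. The median change was -1.13 there, against 0.17 over all probes. Counted in either direction, the calls lay near the share of all probes at both steps, so that these counts are no result about NuRD. Rbbp7 (-3.62 ± 0.111), a histone-binding subunit, and Mta1 (-2.87 ± 0.102) fell, while Mbd2 (1.63 ± 0.135), which binds methylated DNA, and Gatad2b (1.34) rose. Chd4, the remodelling ATPase, lay between 4.15 and 4.76 in all fraction means, and Chd3, its paralog, went from 4.09 in KLS to 0.32 in Mac1Gr1. Over 9 alternatives, 4 to 11 NuRD genes fell at the erythroid step and 5 to 10 at the myeloid step. The highest counts were under spike-in scaling, where the median probe changed by -1.33 and -1.86. Within-class 6 fell at each step.

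Of the CtBP and SIN3 genes, 1 of 4 fell from CFUe to Ter119 (Ctbp1, -1.54 ± 0.124), where 28% of probes fell. From GMP to Mac1Gr1 0 of 4 were called, where 56.7% of probes were, and 3 had an adjusted p under 0.05 at less than 2-fold. The median change of the 4 was -0.17, and Sin3b, a scaffold of the deacetylase complex, changed by 0.91 ± 0.138 (adjusted p 1.33e-05). Under spike-in scaling 4 of 4 were called lower at each step, but the median probe changed by -1.33 and -1.86 there. No share of all probes was counted on that scale, so these counts are no result about the 4 genes. Of the 5 cereblon ligase genes, 3 were higher in CFUe than in KLS (Cul4a by 1.81 ± 0.172, Ddb1 by 1.39 ± 0.148 and Rbx1 by 1.17 ± 0.136, where 17.3% of probes were higher) and 3 fell from CFUe to Ter119, among them Ddb1 (-2.45 ± 0.148), the adaptor of the ligase. Over the 9 alternatives these counts ran from 0 to 3 and from 1 to 5, and within-class both were 3. From GMP to Mac1Gr1 2 of 5 fell, where 27.6% of probes fell, Ddb1 (-2.48 ± 0.148) and Cul4a (-1.16 ± 0.172). Crbn, the cereblon gene, lay between -0.85 and -0.46 in all fraction means.

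Lymphoid genes known to depend on Ikaros or Aiolos fell from KLS to PreMegE, where Ikzf1 changed by 0.23 (adjusted p 0.348). Of 6, 5 fell from KLS to PreMegE (median change -3.63, or -2.21 with the 2 genes below background in PreMegE at their bound, against 0.13 over all probes tested, of which 8.86% fell). Markers of other cells were lower there too. The sum of 7 macrophage markers went from 19.2 to 54.2 on KLS to 0.345 to 0.752 on PreMegE, with 7 of 7 called lower, and it was 0.718 to 0.853 on PreGM. The B cell sum was 9.13 to 11.2 on KLS, 3.42 to 4.29 on PreMegE (Blnk, a signalling adaptor of B cells, changed by -4.70 ± 0.223) and 9.36 to 10.4 on PreGM. The part of these cells in the fall was not tested. Dntt, the polymerase of receptor joining, had a mean level of 5.66 in KLS, -1.67 in PreMegE, 4.59 in PreGM and -2.45 in GMP. The receptor gene Flt3 stood at 2.08, -2.78, 0.77 and -2.74 in the same order. From KLS to PreGM 3 of 6 fell, by 1.32 for Flt3 (adjusted p 0.00154), where 6.52% of probes fell, and PreMegE lay below PreGM in 3 of 6, where 6.23% did. Within-class these counts were 4 and 3, and over the 9 alternatives 2 to 5 and 2 to 3. In mature cells the direction turned, as 6 of 6 rose from CFUe to Ter119 (median 4.77) and 5 of 6 from GMP to Mac1Gr1 (median 2.93), against 29.2% and 29.1% of all probes called higher. Over the 9 alternatives 4 to 6 and 3 to 5 rose, and within-class 6 and 5. Dntt stood at 3.48 in Ter119 and Vpreb1, part of the surrogate light chain of pre-B cells, at 3.89 in Ter119. These rises occurred on the arrays with the high B cell and granulocyte sums, whose part in them was not tested.

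**Figure D5:**
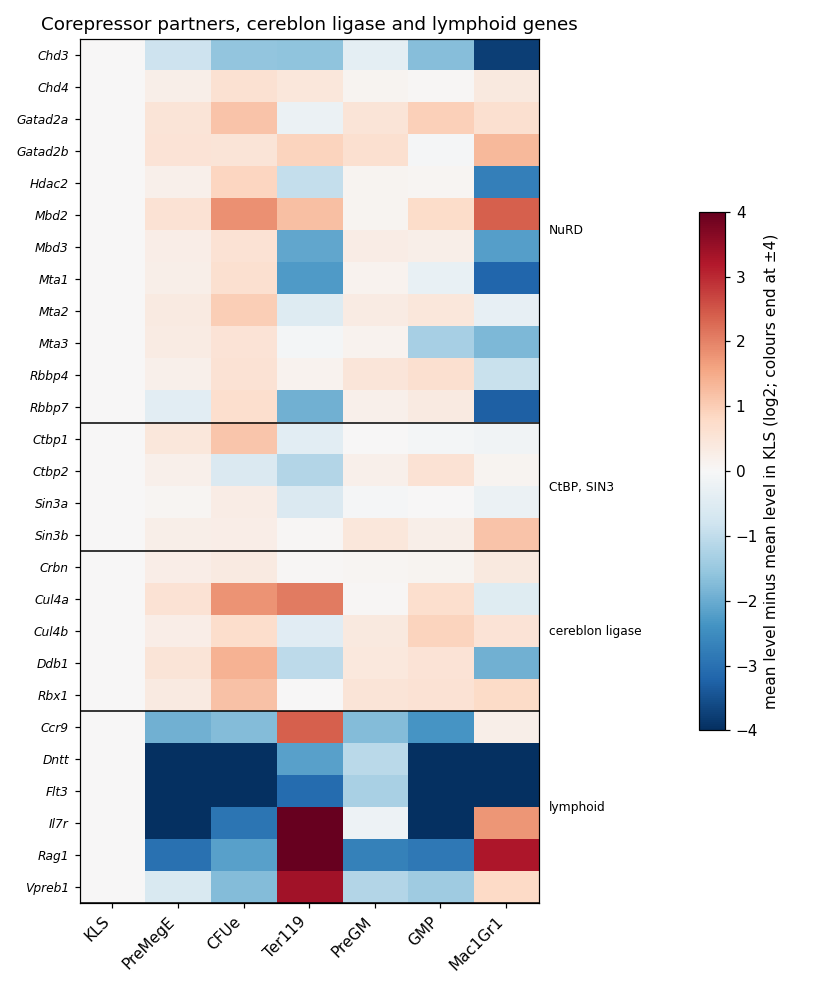
Mean level of each gene in each fraction minus its mean level in KLS (colour, log2, ending at ±4) for 12 NuRD genes, 4 CtBP and SIN3 genes, 5 cereblon ligase genes and 6 lymphoid genes (rows); columns are the fractions. Mta1 and Rbbp7 are lower in both mature fractions than in KLS, and Il7r, Rag1 and Vpreb1 are higher in Ter119.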

How the data were processed

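RNA of 7 sorted fractions was hybridised to Agilent arrays of 1 colour, 3 per fraction, with spike-in RNAs. The authors deposited the scanner output, in which each spot has a processed intensity made by Agilent Feature Extraction 10.7.1.1, and a series table of log2 values that the authors normalized, whose scale and centring are not given in the sources used here (every column runs from 1.719 to 19.189). Control spots and outlier spots were left out, spots of a probe were averaged, and log2 intensity minus the 75th percentile of each array was tested with limma 3.58.1 in R 4.3.3 over all 21 arrays, on 29526 of 41174 probes, kept if every array of 1 fraction or more passed the background criterion of the scanner software. The residual SD had a median of 0.262 (log2), and the number of arrays limits the precision. P-values were adjusted by Benjamini-Hochberg over all probes tested. A call needs an adjusted p under 0.05 and a 2-fold difference.

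Probes were named by their RefSeq accession through a GRCm38.p6 gene table, and 26690 (64.8%) had a symbol. The text names the 5 members, the members of the lists of partners, lymphoid genes and cell markers, and for each member the 5 genes most alike and the most opposed one by Pearson correlation over 7 fraction means. Some genes that this rule names are not reported here. A probe below background on every array of 1 fraction has only a bound there, set from the lowest signal that met the background criterion. The members and lists were chosen with earlier results of these data known. On data simulated for CFUe against KLS, the fit called 166 of 200 probes changed by 2 on the log2 scale. Replicate numbers showed no pairing common to the arrays. Alternatives were quantile normalization, scaling to 7 of 10 spike-in sequences, normexp background correction (offset 50, on median signals), other filters and probes, a block for slide or for replicate number, the series table and each array left out.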

Additional observations from a re-analysis of the deposited data

Results flagged for a closer look

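The tested difference between the erythroid and myeloid lineages flagged 4 values, all log2 differences of changes with the adjusted p of limma. At the second step (PreMegE to CFUe against PreGM to GMP) the Ikzf1 change was lower in the erythroid lineage by -0.81 (adjusted p 0.0133), under 2-fold. At the third step (CFUe to Ter119 against GMP to Mac1Gr1) the differences were -1.15 for Ikzf1 (adjusted p 0.000571), 1.80 for Ikzf2 (adjusted p 0.0288) and -1.14 for Ikzf3 (adjusted p 0.033). Within classes of sex-chromosome transcripts these were -0.55, -1.59, 0.11 and -1.17 in the same order. In each of them CFUe replicate 3 stands alone on the erythroid side.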

How the results depend on the processing

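Of 965 values of a member under an alternative, 807 kept their direction and side of the threshold, 39 lost a call, 59 gained one and 60 changed sign. This total includes settings that leave the estimates as they are, so that no sign could turn. They are the filters on dim probes, 1 probe per gene, the replicate block, the compared fractions alone and no minimum fold. Of 65 values each, spike-in scaling kept 20 and turned 28. Leaving out the scaling kept 38 and turned 12, and quantile normalization kept 55 and turned 1. Of 450 values with 1 array left out, 397 kept both, 19 lost a call, 16 gained one and 18 changed sign. The 6 sign changes of a value called on either scale were all under spike-in scaling. By construction spike-in scaling shifts every probe of an array alike, and the median probe moved from 0.22 to -1.16 in CFUe against GMP and from 0.15 to -1.39 in the second lineage difference. Quantile normalization moved the median probe in Ter119 against CFUe to -0.27 and normexp correction to 0.43. Quantile normalization turned Ikzf4 (0.22) in GMP against KLS. Spike-in scaling turned Ikzf1 (-0.24), Ikzf3 (-0.06), Ikzf4 (-0.18) and Ikzf5 (0.00) in PreMegE against KLS, Ikzf3 (-0.12), Ikzf4 (-0.33) and Ikzf5 (-0.02) in CFUe against PreMegE, Ikzf1 (-0.15) in Ter119 against CFUe, Ikzf3 (-0.49) and Ikzf5 (-0.32) in PreGM against KLS. It also turned Ikzf1 (0.77) and Ikzf3 (0.50) in GMP against PreGM, Ikzf4 (-0.11) in Mac1Gr1 against GMP, Ikzf2 (0.04) in PreMegE against PreGM, Ikzf1 (-1.21), Ikzf3 (-0.19), Ikzf4 (-0.73) and Ikzf5 (-0.98) in CFUe against GMP. It turned as well Ikzf3 (-0.68) and Ikzf5 (-0.21) in Ter119 against Mac1Gr1, Ikzf3 (-0.19), Ikzf4 (-0.50) and Ikzf5 (-0.02) in CFUe against KLS, Ikzf3 (0.01) and Ikzf4 (0.23) in GMP against KLS, Ikzf3 (-0.62), Ikzf4 (-1.48) and Ikzf5 (-1.29) in the second lineage difference. Normexp correction turned Ikzf2 (0.14) in Ter119 against CFUe, Ikzf4 (-0.09) in GMP against PreGM, Ikzf3 (-0.03) in Ter119 against Mac1Gr1. The slide as a block turned Ikzf2 (0.42) in PreMegE against KLS, Ikzf4 (-0.06) in CFUe against PreMegE, Ikzf2 (0.27) in PreGM against KLS, Ikzf2 (0.16) in PreMegE against PreGM. It also turned Ikzf4 (-0.13) and Ikzf5 (-0.11) in the second lineage difference. The series table turned Ikzf4 (0.22) in GMP against KLS. Fits within a class turned Ikzf2 (0.38) in PreGM against KLS, Ikzf1 (-0.04) in CFUe against GMP, Ikzf2 (0.64) in the second lineage difference. Leaving out the scaling turned Ikzf3 (-0.01) and Ikzf4 (-0.22) in CFUe against PreMegE, Ikzf3 (-0.16) in PreGM against KLS, Ikzf1 (0.17) in GMP against PreGM, Ikzf1 (-0.56), Ikzf4 (-0.09) and Ikzf5 (-0.33) in CFUe against GMP. It also turned Ikzf3 (-0.60) and Ikzf5 (-0.13) in Ter119 against Mac1Gr1, Ikzf4 (-0.13) in CFUe against KLS, Ikzf4 (-0.77) and Ikzf5 (-0.59) in the second lineage difference. The probe of second rank turned Ikzf2 (0.55) in Ter119 against CFUe, Ikzf4 (0.30) in GMP against KLS. The probe of next rank turned Ikzf4 (-0.20) in CFUe against PreMegE, Ikzf4 (-0.22) in GMP against PreGM, Ikzf4 (-0.19) in the third lineage difference. The dimmest probe turned Ikzf2 (-0.45) in Ter119 against Mac1Gr1. Leaving out 1 array gave values of either sign, from -0.05 to 0.41 for Ikzf3 in PreGM against KLS, -0.04 to 0.44 for Ikzf3 in PreMegE against PreGM, -0.17 to 0.35 for Ikzf4 in the second lineage difference, -0.95 to 0.38 for Ikzf2 in Ter119 against CFUe. Others ran from -0.04 to 0.29 for Ikzf1 in CFUe against GMP, -0.14 to 0.24 for Ikzf3 in Ter119 against Mac1Gr1, -0.08 to 0.23 for Ikzf5 in the third lineage difference, -0.27 to 0.17 for Ikzf2 in PreMegE against PreGM. Further values ran from -0.47 to 0.06 for Ikzf4 in GMP against KLS, -0.16 to 0.36 for Ikzf4 in GMP against PreGM, -0.08 to 0.44 for Ikzf4 in the third lineage difference.

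The counts of members called changed as follows, and the cause was not tested. No share of all probes was counted under these settings, so the counts are no result about the family. With quantile normalization they were 1 in PreGM against KLS, 1 in PreMegE against PreGM, 3 in CFUe against KLS, 1 in the second lineage difference and 0 in the third. With spike-in scaling they were 1 in PreGM against KLS, 3 in GMP against PreGM, 1 in PreMegE against PreGM, 2 in CFUe against GMP, 1 in Ter119 against Mac1Gr1, 2 in CFUe against KLS, 1 in GMP against KLS, 4 in the second lineage difference and 1 in the third. Normexp correction gave 0 in CFUe against GMP, 1 in Ter119 against Mac1Gr1 and 1 in GMP against KLS. With the slide as a block there were 0 in GMP against PreGM, 1 in PreMegE against PreGM, 0 in CFUe against GMP, 0 in GMP against KLS and 1 in the third lineage difference. The series table gave 1 in PreGM against KLS, 1 in PreMegE against PreGM, 3 in CFUe against KLS, and 1 in each lineage difference. With no minimum fold there were 1 in PreMegE against KLS, 1 in PreGM against KLS, 1 in PreMegE against PreGM, 2 in CFUe against GMP, 3 in Ter119 against Mac1Gr1, 4 in CFUe against KLS and 1 in the second lineage difference. The mean of all probes of a gene gave 2 in CFUe against GMP.

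Fits within a class of sex-chromosome transcripts, without scaling and with single other probes were chosen after seeing the data. Within a class there were 2 in CFUe against GMP, where 26.8% of probes were called. The counts in CFUe against PreMegE and in the third lineage difference rest on a CFUe array that stands alone and are not given. Without scaling and with 1 array left out, no share of all probes was counted. Without scaling there were 1 in PreGM against KLS, 1 in PreMegE against PreGM, 1 in Ter119 against Mac1Gr1, 2 in CFUe against KLS, 1 in GMP against KLS and 1 in the second lineage difference. Leaving out 1 array gave 1 to 2 in CFUe against PreMegE, 0 to 1 in PreMegE against PreGM, 0 to 2 in CFUe against GMP, 0 to 2 in Ter119 against Mac1Gr1, 1 to 3 in CFUe against KLS, 1 to 2 in GMP against KLS, 0 to 2 in the second lineage difference and 1 to 3 in the third.

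Replicate numbers showed no pairing common to the arrays. Deviations from the fraction means correlated at a median of 0.0024 for same-numbered arrays of different fractions and 0.00761 for other numbers. Of 63 same-numbered pairs 21 lay above 0.1, in a range from -0.43 to 0.369, and whether some arrays were paired was not tested. As each fraction holds every replicate number, a block for it leaves the differences as they are, and only their spread could change. With this block all 65 member values kept their call, while their sign was fixed by the design. Every count stayed as it was, such as 2 in CFUe against PreMegE and 3 in Ter119 against CFUe. Members at low intensity, such as Ikzf2 in Mac1Gr1, are limited by signal over background.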
